A study of Drosophila melanogaster with 20 samples.

Results

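Atonal (Ato), a proneural transcription factor, was overexpressed in Drosophila melanogaster eye-antennal imaginal discs by crossing the Gal4/7 driver line to the UASato line, and the discs of this cross were profiled on 3 arrays. These 3 arrays, chosen by their line label, were set against the 8 control arrays, out of 20 arrays in the series. The controls were 2 arrays each of the Gal4/7 line, the UASato line, the atoGal4 line and the CantonS wild type. The Gal4/7 and UASato lines are the parents of the cross, and 3 arrays of atoGal4 x UASato served to compare a second driver. Every group was kept at 18 degrees Celsius and moved to 28 degrees for 24 hours early in the third instar before the discs were dissected, and the series' design text calls the arrays biological repeats. A pair of lines is required because Gal4 made by the driver line switches on the UAS transgene of the other, so neither parent alone should express the transgene. The sources used here do not state in which cells Gal4/7 is active, and the cross therefore models raised Ato in an unnamed set of disc cells.

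In the eye disc a wave of differentiation, the morphogenetic furrow, sweeps across the epithelium, and Ato is the basic helix-loop-helix protein that selects the founding photoreceptor, R8, of each ommatidium. Ato is first made in a broad band, is then restricted to single cells by Notch signaling, and switches on senseless, which secures the R8 fate. R8 then recruits the other photoreceptors through EGFR ligands and, for R7, through Boss, the R8 surface protein that binds the receptor Sevenless. Ato is also the proneural factor of chordotonal organs, the stretch receptors whose neurons carry a cilium, and of Johnston's organ, which forms in the antennal part of the disc.

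Levels are log2 RMA values, in which 1 unit is a 2-fold difference, and they compare a gene between arrays, not different genes with each other. Of 11982 genes with a probe set of their own, 235 were higher in Gal4/7 x UASato than in the 8 controls (1.96% of the genes tested) and 63 were lower (0.526%), at an adjusted p under 0.05 with limma. Above 1.5-fold, 185 genes were higher (1.54%) and 42 were lower (0.351%). All 3 cross arrays lay above all 8 control arrays for 231 of the 235 higher genes, against 4.06% of all genes, and below them for 59 of the 63 lower genes, against 1.57% of all genes. These genes were called on the same arrays, so such separation follows largely from the selection and is not further evidence. The median log2 fold change over all genes, called log2 change from here on, was 0.01. The cross array replicate 1 was the lowest of the 3 for 161 of the 235 higher genes. It also correlated less with the other two arrays (r = 0.978 and 0.982) than those did with each other (r = 0.993). Leaving out replicate 1 gave 229 higher and 72 lower genes, whereas leaving out replicate 2 gave 103 and 25, and leaving out replicate 3 gave 120 and 26. With the replicate number as a block in the fit, 123 higher and 28 lower genes remained.

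The driven gene itself was read first, since it checks the labels. The ato probe set read 12.22, 12.51 and 12.61 in the 3 cross arrays, against a lowest, median and highest control value of 9.27, 9.79 and 10.01. All 3 arrays of the cross stood far above every control, and the UASato parent, which carries the transgene without a driver, lay among the other controls at 9.71 and 9.96. The log2 change of ato was 2.71 ± 0.16 (SE; 3 against 8 arrays), which is 6.56-fold, with a limma adjusted p of 2.26e-05. The array does not tell transgenic from endogenous ato RNA. In bulk discs a lower level from fewer expressing cells and one from less RNA per cell cannot be told apart, and the same holds for a higher level.

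The R8 specification list was read next. It is named for R8, but its phyl and neur act in sensory precursors more widely, so a rise does not name the cells. All 5 measured members of the R8 specification list were higher, against 1.96% of all genes, with a median log2 change of 2.4. One of them is ato, the driven gene, whose rise was set by the design and is no response to it. Next to ato these were sens, boss, phyl and neur. The zinc-finger gene sens, which Ato switches on in R8, read 10.69, 10.73 and 11.02 in the cross, against 7.98, 8.47 and 8.7 (lowest, median, highest) in the controls. The 3 cross arrays agreed closely and none approached a control array. The log2 change of sens was 2.4 ± 0.15 (SE, adjusted p = 3.03e-05).

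boss, which encodes the R8 ligand for Sevenless, read 8.61, 9.2 and 9.39 in the cross, against 6.17, 6.52 and 6.83 in the controls, a log2 change of 2.56 ± 0.16 (SE, adjusted p = 3.03e-05). Cross replicate 1 was the lowest of the 3 for boss and still exceeded the highest control by more than the whole range of the controls. phyl, an adaptor that promotes sensory precursor fate by removing the repressor Tramtrack, read 10.97, 10.93 and 10.96 in the cross, against 9.44, 9.8 and 9.93 in the controls, with a log2 change of 1.22 ± 0.11 (SE, adjusted p = 0.000173). The spread of phyl within the cross was the smallest of these genes. neur, the ubiquitin ligase that lets a precursor send the Delta signal, read 10.17, 10.28 and 10.33 in the cross, against 9.25, 9.52 and 9.77 in the controls, a log2 change of 0.76 ± 0.1 (SE, adjusted p = 0.00213). The groups of neur did not overlap either. All 5 members, the driven ato among them, passed whichever single array was left out, and all 5 passed against the 4 parent arrays alone.

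Of the genes of the later photoreceptors some fell and none of those measured rose. Of 9 measured members of the R1 to R7 list, 4 were lower, against 0.526% of all genes, and 0 were higher at an adjusted p under 0.05. The median log2 change of the list was -0.39. lz, the Runt-domain factor of the R1, R6 and R7 precursors and the cone cells, read 7.04, 5.75 and 5.57 in the cross, against 8.76, 9.48 and 9.8 in the controls. Cross replicate 1 was the least reduced, and it was still below every control. The log2 change of lz was -3.33 ± 0.29 (SE), a level 10.1-fold lower in the cross, with an adjusted p of 0.000164.

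sev, the receptor that Boss binds on the R7 precursor, read 6.37, 6.09 and 5.91 in the cross, against 7.67, 8.31 and 8.61 in the controls, a log2 change of -2.14 ± 0.18 (SE, adjusted p = 0.000139). So the RNA of the ligand boss was higher and the RNA of its receptor sev lower on the same 3 arrays. The paired homeobox genes B-H1 and B-H2, which mark R1 and R6, were both lower. B-H1 read 8.66, 8.42 and 8.54 in the cross, against 9.43, 9.8 and 10.02 in the controls, with a log2 change of -1.21 ± 0.13 (SE, adjusted p = 0.000513). B-H2 read 8.75, 8.63 and 8.51 in the cross, against 9.84, 10.06 and 10.33 in the controls, with a log2 change of -1.48 ± 0.11 (SE, adjusted p = 4.3e-05). Neither gene overlapped with the controls on any array.

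The other 5 members of the list did not pass. ro, the R2 and R5 homeobox gene, had a log2 change of -0.05 (adjusted p = 0.952), and svp, the receptor of the R3, R4, R1 and R6 cells, one of -0.05 (adjusted p = 0.96). salm and salr, spalt genes of R3, R4, R7 and R8, had values of 0.04 and 0.2 with adjusted p-values of 0.928 and 0.676. pros, the R7 and cone cell factor, had one of -0.39 (adjusted p = 0.823), with cross arrays at 9.15, 8.94 and 7.46 of which the last lay below the controls' range of 8.29 to 9.83. The 4 lower genes lz, sev, B-H1 and B-H2 stayed past the threshold whichever array was left out.

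**Figure D1:**
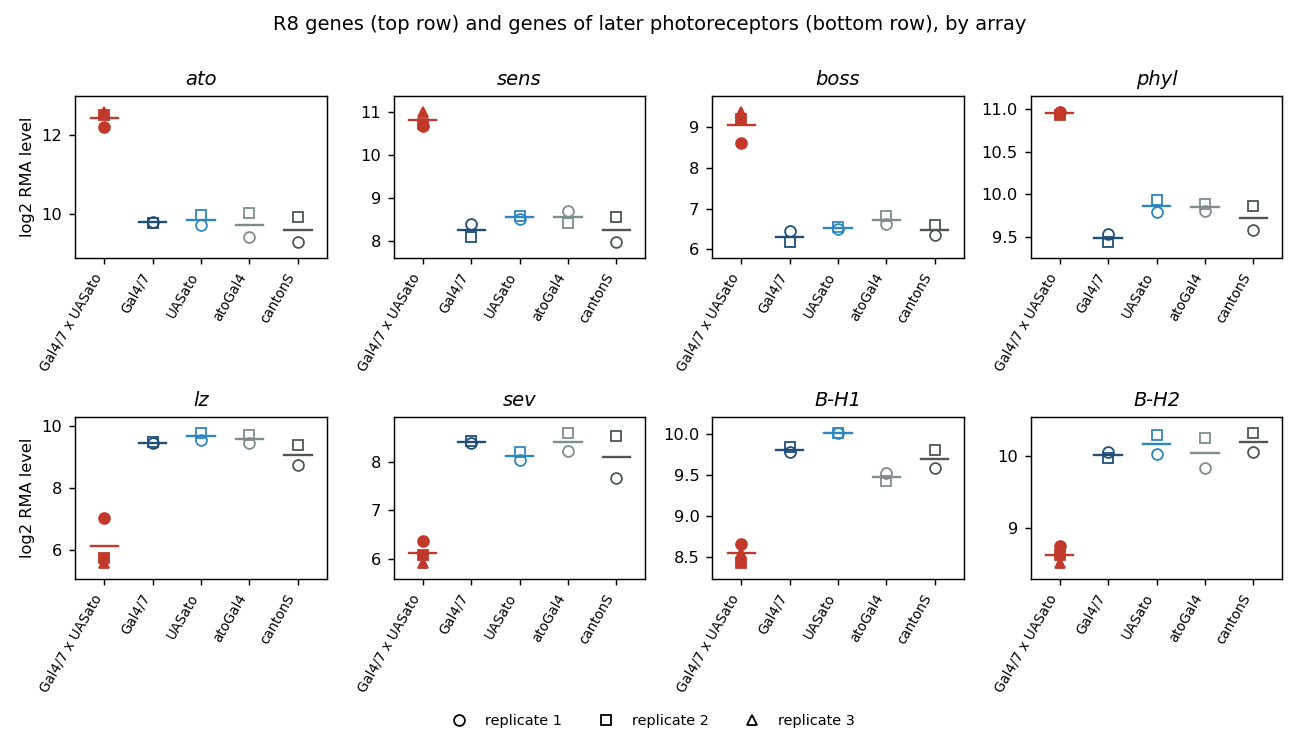
Log2 RMA level (vertical axis, each panel with its own range) of 4 genes of the R8 specification list in the top row and 4 genes of later photoreceptors in the bottom row, for every array of Gal4/7 x UASato (filled, left) and of the 4 control lines (open). Marker shape gives the replicate and the horizontal bar the mean of the line; for lz the cross lay at 5.57 to 7.04 and the controls at 8.76 to 9.8.

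Of cone and pigment cell genes, 1 of 9 was higher, against 1.96% of all genes, and 0 were lower at an adjusted p under 0.05. That gene was kirre, an immunoglobulin adhesion protein of the interommatidial lattice, at a log2 change of 0.66 ± 0.12 (SE, adjusted p = 0.0142). Its arrays read 8.94, 9.39 and 9.55 in the cross, against 8.47, 8.63 and 8.81 in the controls. The call of kirre was lost without cross replicate 2 or 3, with an adjusted p of up to 0.113. Among signals of the eye disc, aos was lower. aos encodes Argos, the secreted inhibitor of EGFR that responding cells make, and it read 8.93, 8.87 and 8.73 in the cross, against 9.37, 9.56 and 9.73 in the controls, a log2 change of -0.71 ± 0.08 (SE, adjusted p = 0.000649). It was the 1 of 7 measured EGFR and Ras genes that passed, where 0.526% of all genes were lower. Genes of the Notch pathway (7 measured) and of Hedgehog, Dpp and Wingless signaling (8 measured) gave 0 calls in either direction with limma. The Notch pathway genes lay between kuz at -0.11 and H at 0.15, and N, Dl and Ser are not analysed here. The other list lay between hh at -0.43 (adjusted p = 0.0961) and dpp at 0.05.

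Most eye selector genes did not pass. Of 11 measured retinal determination genes 1 was lower, against 0.526% of all genes. That gene was so, which encodes the homeodomain partner of Eyes absent. so read 9.12, 9.27 and 9.07 in the cross, against 9.63, 9.9 and 10.18 in the controls, a log2 change of -0.76 ± 0.11 (SE, adjusted p = 0.00318). The groups of so did not overlap. eya and dac had log2 changes of 0.19 and -0.27 with adjusted p-values of 0.67 and 0.441. Over the retinal determination genes the mean log2 level was 9.69 to 9.82 in the cross and 9.49 to 10.21 in the controls, so the labelled tissue carried its markers on every array. The antennal disc genes, with Dll and ss among them, gave 0 calls among 9 with limma, and their mean level was 7.77 to 7.97 in the cross and 7.64 to 8.12 in the controls.

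Among relatives and antagonists of Ato, 1 of 11 measured genes was higher, against 1.96% of all genes. It was cato, a bHLH gene of the Ato family that acts in sensory neurons. cato read 6.27, 6.94 and 7.15 in the cross, against 4.87, 5.25 and 5.47 in the controls, a log2 change of 1.55 ± 0.17 (SE, adjusted p = 0.000623). The partner da and the antagonist emc had log2 changes of -0.15 and 0.17 (adjusted p = 0.416 and 0.181). The proneural gene ase had one of 0.92 and did not pass (adjusted p = 0.089).

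Of 13 genes for the division and fate of sensory precursors, 2 were higher and 1 was lower, against 1.96% and 0.526% of all genes. nvy, which encodes a corepressor of the ETO family, read 9.98, 10.08 and 10.25 in the cross, against 8.35, 8.55 and 8.87 in the controls, a log2 change of 1.53 ± 0.12 (SE, adjusted p = 5.84e-05). spdo, the Notch regulator of asymmetric divisions, read 7.81, 8.05 and 7.97 in the cross, against 6.59, 7.04 and 7.08 in the controls, with a log2 change of 1.01 ± 0.12 (SE, adjusted p = 0.000891). loco, a regulator of G-protein signaling, was lower by a smaller amount, at a log2 change of -0.51 ± 0.09 (SE, adjusted p = 0.00913), and its call was lost when some single arrays were left out (adjusted p up to 0.0846). Of the E(spl) and Bearded genes, which respond to Notch and to proneural factors, 2 of 14 were higher, against 1.96% of all genes. They were E(spl)m6-BFM and E(spl)m4-BFM, both of the Bearded family of Notch inhibitors, at log2 changes of 1.39 and 0.69 (adjusted p = 0.0187 and 0.0442). Without cross replicate 2 or 3 neither passed, and E(spl)m4-BFM did not pass either without any 1 array of Gal4/7, UASato or atoGal4 or without CantonS replicate 1.

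Of 16 neuronal maturation genes 6 were higher, against 1.96% of all genes, and 0 were lower at an adjusted p under 0.05, with a median log2 change of 0.36. futsch, a microtubule-binding protein of axons, read 9.8, 10.19 and 9.49 in the cross, against 8.36, 8.5 and 9.06 in the controls, a log2 change of 1.25 ± 0.16 (SE, adjusted p = 0.0019). cpx, the complexin that clamps vesicle fusion, read 8.63, 9.02 and 8.94 in the cross, against 7.34, 7.56 and 8.17 in the controls, with a log2 change of 1.23 ± 0.17 (SE, adjusted p = 0.00279). For both genes the lowest cross array exceeded the highest control array by less than 0.5 log2 units. nrv3, a sodium pump subunit, and nSyb, the vesicle SNARE, were higher by 0.86 and 0.77 on the log2 scale (adjusted p = 0.00164 and 0.00115). The other two were CadN and para, a cadherin and the voltage-gated sodium channel, at 0.67 and 0.55 (adjusted p = 0.0491 and 0.0202). The count of 6 was 4 without cross replicate 2, without cross replicate 3 or without both Gal4/7 arrays, and 5 or 6 without any 1 of the other arrays. The pan-neuronal marker elav had a log2 change of 0.29 (adjusted p = 0.412), and brp, of the synaptic active zone, one of 0.18 (adjusted p = 0.813).

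Of 15 axon guidance and cell surface genes 6 were higher, against 1.96% of all genes, and 0 were lower at an adjusted p under 0.05, with a median log2 change of 0.4. dpr9, an immunoglobulin protein of synaptic matching, read 6.62, 7.57 and 7.86 in the cross, against 5.61, 5.97 and 6.29 in the controls, a log2 change of 1.35 ± 0.23 (SE, adjusted p = 0.011). beat-IIIc, of the Beaten path family, read 9.56, 9.99 and 9.94 in the cross, against 8.0, 8.54 and 8.81 in the controls, a log2 change of 1.32 ± 0.16 (SE, adjusted p = 0.00119). comm and comm2, which sort the Robo receptor away from the cell surface, were both higher, with log2 changes of 0.93 ± 0.15 and 0.95 ± 0.11 (SE, adjusted p = 0.0083 and 0.000646). comm read 11.17, 11.4 and 11.46 in the cross, against 10.08, 10.35 and 10.82 in the controls. Dscam1, the self-recognition receptor, and beat-IIIa had log2 changes of 0.9 and 0.87 (adjusted p = 0.0065 and 0.028). The count of 6 dropped to 2 without cross replicate 2 and to 3 without cross replicate 3.

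Of 13 neuropeptide genes 3 were higher, against 1.96% of all genes, and 0 were lower at an adjusted p under 0.05. Nplp1, a neuropeptide precursor, read 10.25, 10.7 and 10.96 in the cross, against 8.79, 9.13 and 9.3 in the controls, a log2 change of 1.55 ± 0.16 (SE, adjusted p = 0.000373). amon, the convertase that cuts such precursors, read 7.31, 7.78 and 7.61 in the cross, against 6.23, 6.47 and 6.7 in the controls, a log2 change of 1.09 ± 0.12 (SE, adjusted p = 0.00049). Both were clear of the controls on all 3 arrays. sNPF, the precursor of short neuropeptide F, read 8.43, 8.5 and 8.8 in the cross, against 4.56, 5.85 and 7.65 in the controls, with a log2 change of 2.54 ± 0.55 (SE, adjusted p = 0.0408). The cross arrays of sNPF lay close together while its controls spanned over 3 log2 units, and the call was lost under single left-out arrays (adjusted p up to 0.207).

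Of 13 phototransduction genes 4 were higher, against 1.96% of all genes, and 0 were lower at an adjusted p under 0.05, with a list median of 0.08. The count was 3 without cross replicate 2 or 3. rdgC, the calcium-dependent phosphatase that resets rhodopsin, read 8.88, 9.7 and 10.28 in the cross, against 5.82, 6.46 and 6.9 in the controls. The lowest cross array was almost 2 units above the highest control, and the log2 change of rdgC was 3.21 ± 0.29 (SE, adjusted p = 0.000177), or 9.25-fold. inaC, the eye protein kinase C, read 8.85, 9.21 and 9.29 in the cross, against 7.03, 7.35 and 7.87 in the controls, a log2 change of 1.7 ± 0.18 (SE, adjusted p = 0.00049). chp, the photoreceptor adhesion protein chaoptin, read 10.26, 10.66 and 11.05 in the cross, against 8.6, 9.05 and 9.65 in the controls, a log2 change of 1.59 ± 0.24 (SE, adjusted p = 0.00423). rdgB, a phosphatidylinositol transfer protein, was higher by 0.5 on the log2 scale (adjusted p = 0.0202), and its call was lost without any 1 of the 3 cross arrays (adjusted p up to 0.0927). The light-gated channel genes trp and trpl had log2 changes of 0.08 and -0.06 (adjusted p = 0.849 and 0.925).

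Of 19 genes of ciliated sensory neurons 3 were higher, against 1.96% of all genes, and 0 were lower at an adjusted p under 0.05, with a list median of 0.23. dila, a basal body protein needed for cilium assembly, read 6.12, 5.85 and 6.04 in the cross, against 4.07, 4.37 and 4.74 in the controls, a log2 change of 1.58 ± 0.15 (SE, adjusted p = 0.000209). Cep290, a transition zone protein, read 5.28, 6.35 and 6.73 in the cross, against 4.21, 4.6 and 4.84 in the controls, a log2 change of 1.52 ± 0.24 (SE, adjusted p = 0.00707). ktub, the Tubby-family protein, read 7.75, 7.94 and 7.6 in the cross, against 6.11, 6.37 and 6.53 in the controls, a log2 change of 1.42 ± 0.11 (SE, adjusted p = 7.19e-05). Cep290 was uneven among the 3 cross arrays, while dila and ktub were even. The call of Cep290 was lost without cross replicate 2 (adjusted p = 0.0683) and against the parents alone (adjusted p = 0.0975). The mechanosensory and transcription factor genes nompA, Rfx and fd3F had log2 changes of -0.28, 0.36 and 0.23 and did not pass (adjusted p = 0.852, 0.196 and 0.512).

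**Figure D2:**
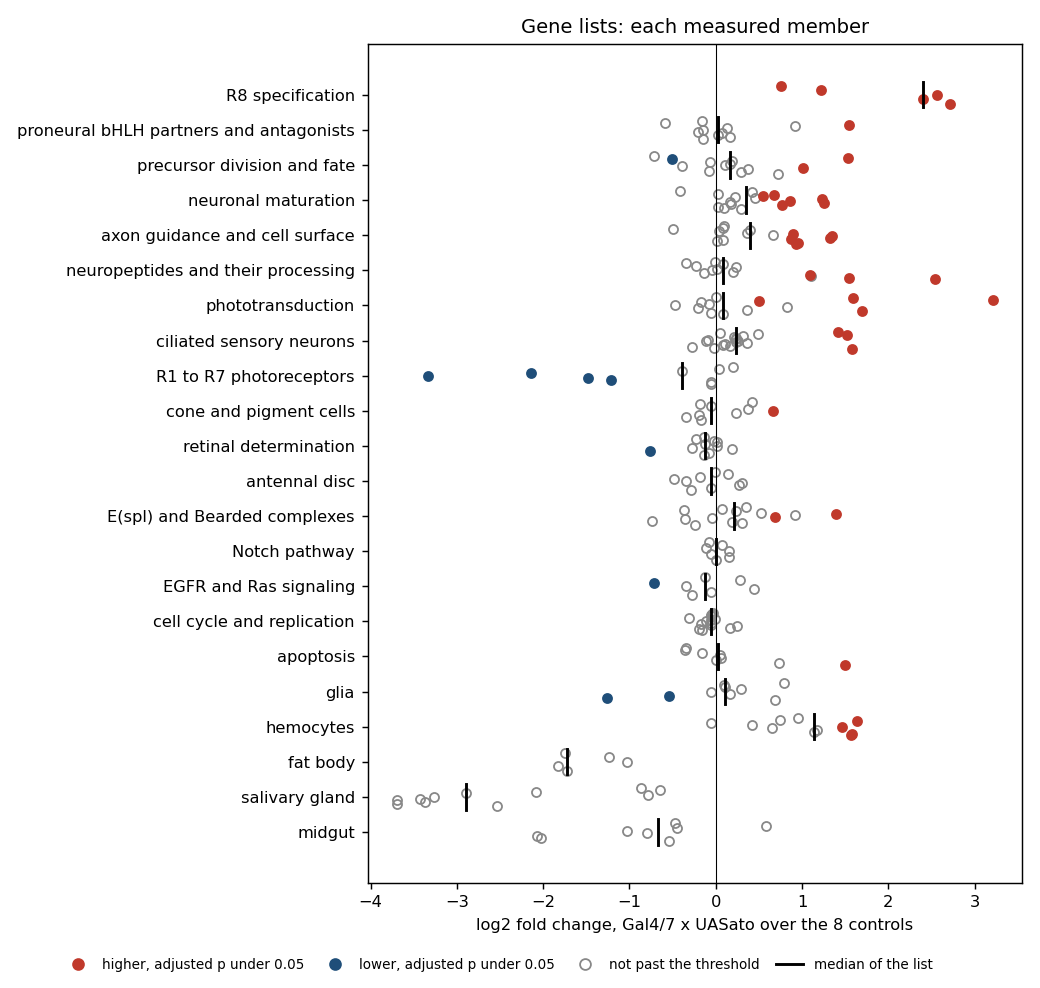
Log2 fold change of Gal4/7 x UASato over the 8 controls (horizontal axis) for each measured member of 22 gene lists. Filled points passed an adjusted p of 0.05 (red higher, blue lower), open points did not, and the black bar is the list's median; the R8 list has its median at 2.4 and the R1 to R7 list at -0.39.

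A set of predicted Ato targets had been tested with reporters in the study, and it was chosen on arrays of this series, for part of its members on those of Ato gain, so its direction is not independent evidence. Of those whose enhancer was active, 8 of 12 measured were higher, against 1.96% of all genes, and 0 lower at an adjusted p under 0.05, with a median log2 change of 0.72. Of those whose enhancer was inactive, 12 of 17 were higher, against the same share of all genes, and 0 lower, with a median of 0.86. The active group counted here leaves out ato and sens, whose enhancers were active too and which were both higher. Active meant reporter expression in an Ato-dependent tissue. The count of 8 was 5 without cross replicate 2, and the count of 12 was 8 without cross replicate 2 or 3. Beyond genes given above, the inactive group held Lim3, a LIM-homeodomain factor of neurons, at 8.93, 9.05 and 9.48 in the cross, against 7.1, 7.4 and 7.59 in the controls (log2 change 1.77 ± 0.12 SE, adjusted p = 3.68e-05). It also held Mob2, a cofactor of the kinase Tricornered, at 9.35, 9.57 and 9.41 in the cross, against 7.5, 8.08 and 8.34 in the controls (log2 change 1.44 ± 0.16 SE, adjusted p = 0.000612). Among the active group RapGAP1, which turns off the GTPase Rap1, had a log2 change of 0.63 (adjusted p = 0.00149).

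The largest increase of all genes was in CG32006, which the annotation used here gives no name. It read 9.08, 9.17 and 9.51 in the cross, against 4.34, 5.14 and 6.08 in the controls. The 3 cross arrays were close to each other, and the log2 change of CG32006 was 4.18 ± 0.3 (SE, adjusted p = 4.3e-05), or 18.1-fold. Faa, the fumarylacetoacetase of tyrosine breakdown, was next. It read 7.23, 10.65 and 10.03 in the cross, against 5.3, 5.66 and 6.32 in the controls, with a log2 change of 3.59 ± 0.56 (SE, adjusted p = 0.00582). Replicate 1 of the cross was over 2 units below the other two for Faa, and the adjusted p without single arrays reached 0.0541.

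NPFR, the receptor of neuropeptide F, read 6.49, 7.79 and 7.82 in the cross, against 4.19, 4.44 and 4.8 in the controls, with a log2 change of 2.88 ± 0.26 (SE, adjusted p = 0.000173). dpr10, of the same family as dpr9, read 6.3, 7.11 and 7.79 in the cross, against 4.35, 4.64 and 4.91 in the controls, a log2 change of 2.46 ± 0.25 (SE, adjusted p = 0.000323). Gyc32E, a receptor guanylyl cyclase, read 7.67, 9.26 and 9.59 in the cross, against 5.86, 6.47 and 6.86 in the controls, a log2 change of 2.37 ± 0.34 (SE, adjusted p = 0.0037). In all of NPFR, dpr10 and Gyc32E replicate 1 was the lowest cross array and was above every control.

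Cpr47Ea, a cuticle protein, read 4.69, 7.24 and 7.19 in the cross, against 3.74, 3.92 and 3.99 in the controls, a log2 change of 2.48 ± 0.42 (SE, adjusted p = 0.0102). Replicate 1 held most of the spread, and the call of Cpr47Ea was lost when some single arrays were left out (adjusted p up to 0.0846). The unnamed genes CG15522, CG13288 and CG3257 and the gene Esp were among the 15 largest increases as well, at log2 changes of 2.91, 2.5, 2.18 and 2.2 (adjusted p = 0.0178, 0.000557, 0.000589 and 0.000902). The call of CG15522 was lost under left-out arrays (adjusted p up to 0.129).

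**Figure D3:**
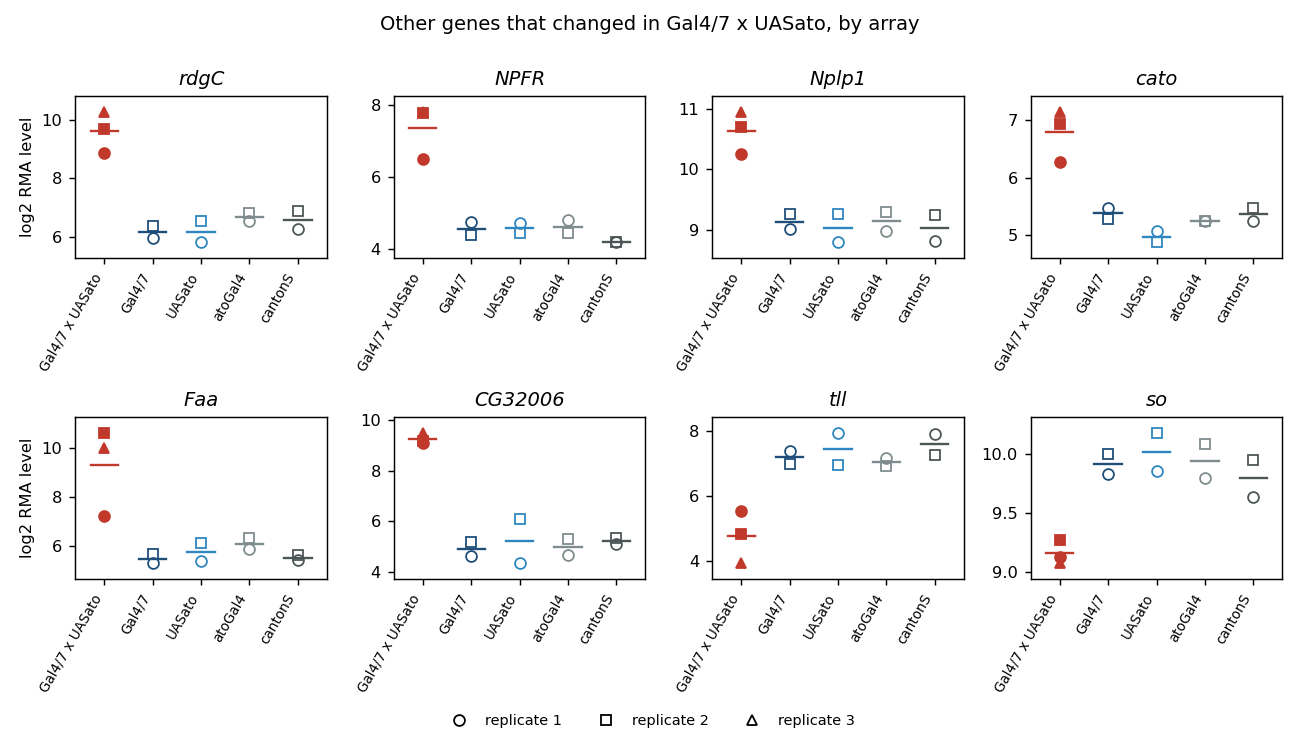
Log2 RMA level (vertical axis, each panel with its own range) of 8 further genes that changed, for every array of Gal4/7 x UASato (filled, left) and of the 4 control lines (open); marker shape gives the replicate and the bar the mean of the line. For Faa replicate 1 of the cross read 7.23, against 10.65 and 10.03 in the other two; for so all 3 cross arrays lay between 9.07 and 9.27.

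The largest decreases next to lz, sev and B-H2 were in genes of several kinds. tll, which encodes the orphan nuclear receptor Tailless of the embryonic termini and the visual system, read 5.53, 4.82 and 3.92 in the cross, against 6.91, 7.21 and 7.94 in the controls, a log2 change of -2.55 ± 0.32 (SE, adjusted p = 0.00149). All 3 arrays were below the lowest control, by amounts that differed among them. IRSp53, a protein that bends the plasma membrane, read 4.93, 5.26 and 4.88 in the cross, against 6.55, 7.16 and 7.57 in the controls, a log2 change of -2.07 ± 0.21 (SE, adjusted p = 0.00039). ana, a glycoprotein secreted by glia that holds neuroblasts quiescent, read 7.51, 7.75 and 7.77 in the cross, against 8.61, 9.75 and 10.24 in the controls, a log2 change of -1.97 ± 0.32 (SE, adjusted p = 0.00707). For ana the UASato parent was the lowest control line, at 9.0 and 8.61, and the call of ana was lost against the parents alone (adjusted p = 0.0979).

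CG5653 read 6.41, 5.96 and 6.0 in the cross, against 8.2, 8.93 and 9.22 in the controls, a log2 change of -2.77 ± 0.19 (SE, adjusted p = 3.73e-05). CG34136 and CG43394 had log2 changes of -1.68 and -1.43 (adjusted p = 0.0172 and 0.00145), and CG34136 lost its call when some single arrays were left out (adjusted p up to 0.137). Osi6, of the Osiris family of insect membrane proteins, read 3.44, 3.56 and 3.52 in the cross, against 4.55, 7.09 and 7.41 in the controls, a log2 change of -3.02 ± 0.64 (SE, adjusted p = 0.0351). The Gal4/7 parent alone held the low control values of Osi6, 4.55 and 4.78, while the other 3 lines lay between 6.48 and 7.41. Its log2 change was -1.16 against the Gal4/7 parent and -3.76 against the UASato parent, and with single arrays left out its adjusted p reached 0.166.

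Of the 8 measured apoptosis genes 1 was higher, against 1.96% of all genes. grim, an activator of cell death, read 5.45, 5.36 and 4.86 in the cross, against 3.46, 3.75 and 3.92 in the controls, a log2 change of 1.5 ± 0.14 (SE, adjusted p = 0.000209). The caspase gene Dronc read 10.17, 10.08 and 10.17 in the cross, against 9.74, 10.15 and 10.43 in the controls (adjusted p = 0.996). The cell cycle list gave 0 calls among 15 with limma and a median of -0.06, with PCNA at 11.15, 11.49 and 11.43 in the cross, against 11.18, 11.43 and 11.61 in the controls. Heat shock (8 measured), JNK and wound (11), ecdysone (12) and glutathione S-transferase genes (21) also gave 0 calls with limma. Their list medians were -0.25, -0.01, 0.01 and -0.02. Genes of the sexes (5 measured), stock marker genes (3) and housekeeping genes (5) gave 0 calls as well, and RpL32 read 13.96, 14.06 and 14.13 in the cross, against 13.93, 14.03 and 14.13 in the controls.

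Markers of other cells in the dissected tissue moved unevenly. Of 11 hemocyte (blood cell) genes 4 were higher in the cross, against 1.96% of all genes, and 0 were lower at an adjusted p under 0.05, with a median log2 change of 1.14. NimC1, a receptor that binds bacteria on phagocytes, read 8.83, 9.76 and 9.48 in the cross, against 7.34, 7.67 and 8.34 in the controls, a log2 change of 1.58 ± 0.25 (SE, adjusted p = 0.00634). Sr-CI, Hml and eater, a scavenger receptor, a clotting protein and a phagocytosis receptor, had log2 changes of 1.64, 1.57 and 1.46 (adjusted p = 0.0152, 0.0307 and 0.034). The mean level of the 11 hemocyte genes was 9.5 to 10.12 in the cross and 8.1 to 9.04 in the controls, so the groups did not overlap. In the atoGal4 x UASato arrays it was 8.49 to 8.67. The count of 4 dropped to 0 without cross replicate 2 or 3 and to 2 without cross replicate 1, UASato replicate 1 or atoGal4 replicate 1.

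Of 9 glia genes 2 were lower, against 0.526% of all genes, and 0 were higher at an adjusted p under 0.05. gcm, the switch gene of glial fate that also acts in blood cells and visual centers, read 6.21, 6.26 and 5.18 in the cross, against 6.6, 7.08 and 7.67 in the controls, a log2 change of -1.26 ± 0.28 (SE, adjusted p = 0.0441). moody, a receptor of the glial barrier, had a log2 change of -0.54 (adjusted p = 0.0213). With single arrays left out both calls were lost, at adjusted p-values of up to 0.251 for gcm and 0.142 for moody. The defining glial gene repo read 9.59, 9.87 and 9.84 in the cross, against 8.06, 9.34 and 9.54 in the controls, and did not pass (adjusted p = 0.451). The mean level of the 9 glia genes overlapped between cross (8.83 to 9.27) and controls (8.75 to 9.35). Of 10 neuroblast and brain genes 0 passed with limma, at a mean level of 6.46 to 7.02 in the cross and 6.64 to 7.41 in the controls.

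Markers of larval tissues next to the disc varied widely between arrays of both groups. Salivary gland genes averaged 5.09 to 10.5 in the cross and 5.45 to 11.29 in the controls, with the glue gene Sgs7 at 14.43, 6.66 and 6.21 in the 3 cross arrays and at 8.14 and 7.12 in replicate 2 of Gal4/7 and of atoGal4. Fat body genes averaged 7.87 to 13.21 in the cross and 10.99 to 13.37 in the controls, and Lsp2, a larval serum protein, read 14.34, 9.05 and 13.38 in the cross. Midgut genes averaged 4.68 to 5.44 in the cross and 4.68 to 11.26 in the controls, and muscle genes 7.82 to 7.88 in the cross and 7.45 to 9.82 in the controls. The high control values belonged to Gal4/7 replicate 2 for midgut, with the protease Jon65Aiv at 14.71, and to Gal4/7 replicate 1 for muscle, with TpnC73F at 12.59. The salivary gland, fat body, midgut and muscle lists had 0 members past the threshold with limma, although the medians were -2.89 for salivary gland and -1.72 for fat body. The part of these tissues and of hemocytes in the other changes was not tested. Without the Gal4/7 control line, the R8 list, ato included, had 5 higher and the R1 to R7 list 4 lower members.

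**Figure D4:**
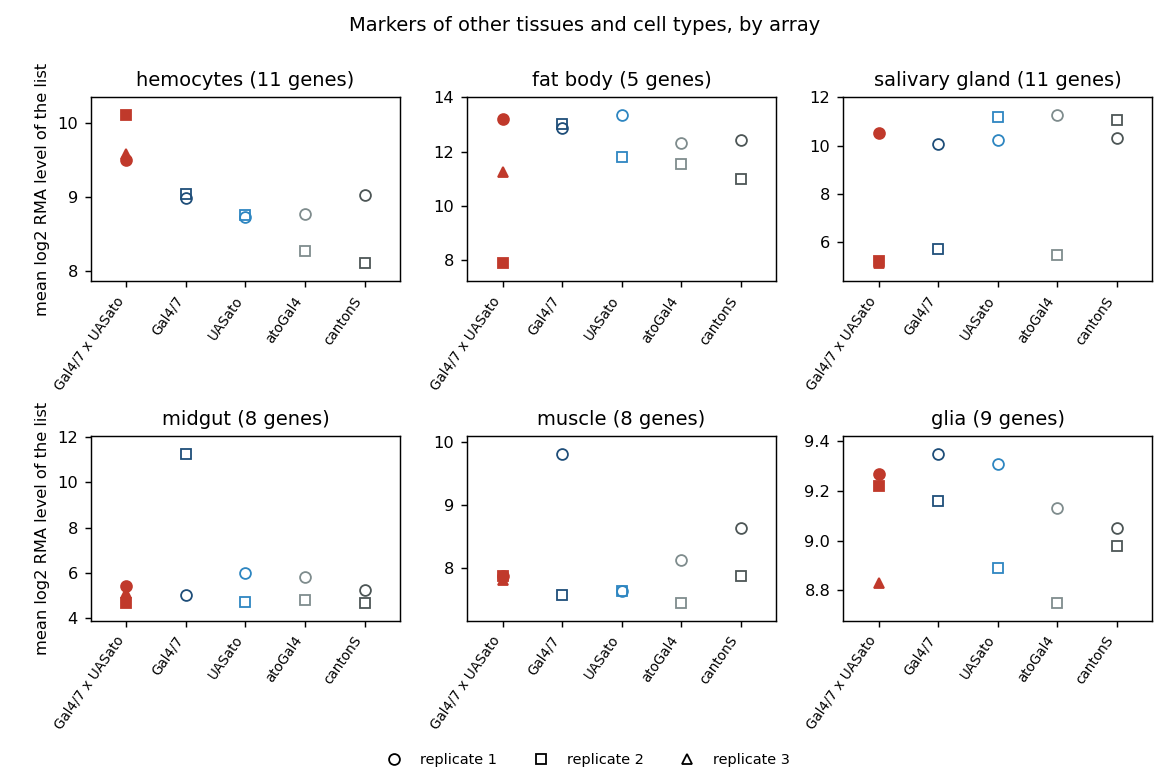
Mean log2 RMA level (vertical axis) of the measured genes of 6 marker lists on every array of Gal4/7 x UASato (filled, left) and of the 4 control lines (open), with marker shape for the replicate. Hemocyte genes were at 9.5 or more on the 3 cross arrays and at 9.04 or less on the controls, whereas salivary gland and fat body genes split the cross arrays themselves.

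The cross was next compared with its parents alone, which carry its driver and its transgene. Against the 4 arrays of Gal4/7 and UASato, 133 genes were higher (1.11% of genes) and 31 were lower (0.259%) at an adjusted p under 0.05. Among the genes called against the 8 controls, all 3 cross arrays lay above every parent array for 233 of the 235 higher genes, against 9.89% of all genes, and below every parent array for 62 of the 63 lower genes, against 3.83% of all genes. The parents are 4 of the 8 controls, and 231 of the higher and 59 of the lower genes already lay beyond every control array. These counts were thus largely fixed by the first comparison and are no separate check of it. Leaving out cross replicate 2 gave 32 higher and 7 lower genes, and leaving out cross replicate 3 gave 46 and 9. Without cross replicate 1 there were 167 and 59, and without any single parent array 69 to 71 higher and 16 to 22 lower genes. With the replicate number as a block in the fit, 8 higher genes and 1 lower gene remained against the parents.

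ato stood 2.66 above the Gal4/7 parent and 2.61 above the UASato parent on the log2 scale (adjusted p = 0.0196 and 0.00621). The same was seen for sens, at 2.56 and 2.25 (adjusted p = 0.0221 and 0.00621), and for boss, at 2.77 and 2.55 (adjusted p = 0.0374 and 0.0234). sev was lower than both parents, at log2 changes of -2.29 and -2.01 (adjusted p = 0.0253 and 0.0154), and so was B-H1, at -1.27 and -1.48 (adjusted p = 0.0337 and 0.0133). lz stood at -3.35 against Gal4/7, which did not pass (adjusted p = 0.0747), and at -3.55 against UASato (adjusted p = 0.0443). Of the 25 largest changes 7 did not pass against both parents together. Faa, CG15522, Cpr47Ea and Gyc32E had log2 changes of 3.69, 2.64, 2.43 and 2.43 there (adjusted p = 0.0993, 0.0802, 0.16 and 0.0825), and Osi6 and ana -2.46 and -1.65 (adjusted p = 0.253 and 0.0979). The other was sNPF, at 2.51 (adjusted p = 0.123), and its parents differed, with Gal4/7 at 4.56 and 6.01 and UASato at 6.7 and 7.01. With each parent fitted alone by limma, Osi6 passed against Gal4/7 and against UASato (adjusted p = 0.0356 and 0.002). In these fits ana passed against Gal4/7 (0.0337) but not UASato (0.0554), and sNPF against UASato (0.0234) but not Gal4/7 (0.0701). Faa, CG15522, Cpr47Ea and Gyc32E passed against neither.

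Against the parents 1.11% of all genes were higher and 0.259% lower. The R8 list, which includes the driven ato, had 5 of 5 members higher than the parents and the R1 to R7 list 4 of 9 lower. The neuronal maturation list had 6 of 16 higher, and axon guidance had 3 of 15. Of the hemocyte genes 1 of 11, Sr-CI, passed against the parents, with a log2 change of 1.61 (adjusted p = 0.0232). Of the glia genes 0 passed with limma, where gcm had a log2 change of -1.3 (adjusted p = 0.174).

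**Figure D5:**
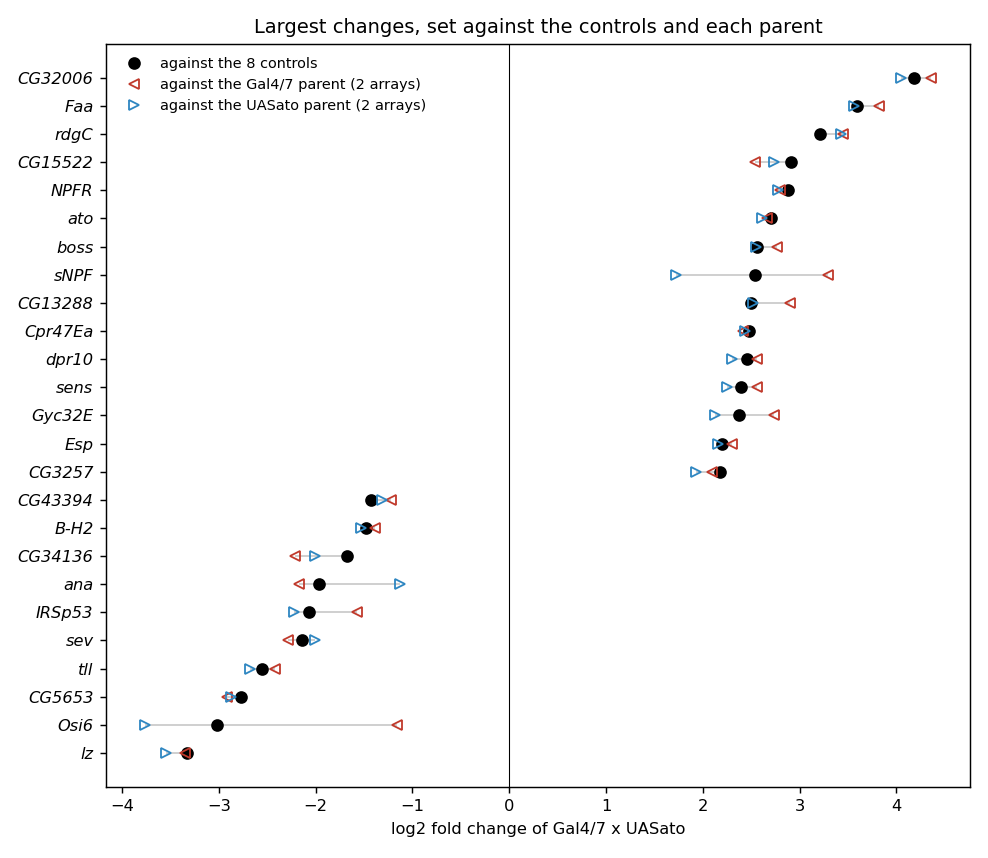
Log2 fold change of Gal4/7 x UASato (horizontal axis) for the 15 largest increases and 10 largest decreases, against the 8 controls (black), the 2 Gal4/7 parent arrays (red, pointing left) and the 2 UASato parent arrays (blue, pointing right). All 3 values of each gene have the same sign, which was fixed by choosing genes whose cross arrays all lay beyond every control array. The values against the 2 parents lie apart for sNPF (3.29 and 1.72) and Osi6 (-1.16 and -3.76).

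Whether an effect was particular to this driver was asked by a test of the difference itself, in which the change of Gal4/7 x UASato over Gal4/7 was set against the change of atoGal4 x UASato over atoGal4. It passed for 10 genes, 0.0835% of those tested, 9 with a larger and 1 with a smaller value under Gal4/7. ato itself was at 11.3, 11.62 and 11.4 in atoGal4 x UASato, and the difference in its change was 0.92 ± 0.27 (SE), larger with Gal4/7, and did not pass (adjusted p = 0.383). For boss the difference was 2.41 ± 0.34 (SE, adjusted p = 0.0688), for sens 1.4 ± 0.22 (SE, adjusted p = 0.0756) and for sev -2.14 ± 0.29 (SE, adjusted p = 0.0533), so these 3 missed the threshold. Set directly against atoGal4 x UASato, Gal4/7 x UASato differed by 1.98 for boss, 1.1 for sens, -2.14 for sev and 1.0 for ato. All of these passed in that limma fit (adjusted p = 0.0174, 0.0152, 0.00771 and 0.0279). The direct fit does not take out differences between the driver lines themselves. sev read 8.16, 8.04 and 8.61 in atoGal4 x UASato, within the controls' range, and boss read 7.39, 6.97 and 6.9 there, above all controls. neur had a difference of -0.03 ± 0.18 (SE, adjusted p = 0.97).

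Of the 10 genes that passed, Mob2 was the one also called against the 8 controls, with a difference of 1.21 ± 0.15 (SE, adjusted p = 0.0418) and values of 8.64, 8.46 and 8.38 in atoGal4 x UASato. Most of the others differed between the lines themselves. CG18343 read 8.55, 8.57 and 8.66 in the cross, against 5.31 and 5.34 in Gal4/7 and 9.56 and 9.43 in UASato, so the cross lay between its parents. PGRP-LE, a sensor of bacterial peptidoglycan, read 7.99, 8.38 and 7.92 in the cross, against 5.51 and 5.11 in Gal4/7 and 9.02 and 9.29 in UASato. CG6912 and CG12880 showed the same order, with the cross above Gal4/7 and below UASato on every array. Fie read 7.2, 7.21 and 7.42 in the cross, against 5.59 and 5.56 in Gal4/7 and 5.89 and 5.7 in UASato, so it lay above both parents, with a log2 change of 1.59 ± 0.1 against them (SE, adjusted p = 0.00231). The lines differed for Fie too, with atoGal4 at 6.62 and 6.77 and CantonS at 6.56 and 6.76. By limma Fie did not pass against the 8 controls (adjusted p = 0.113). Set directly against atoGal4 x UASato, the cross differed by 0.7 for Fie (limma adjusted p = 0.0662). The hairpin RNA locus hpRNA:CR32207 had the 1 negative difference, at -2.71 ± 0.26 (SE, adjusted p = 0.0157), where the atoGal4 line was low at 5.54 and 4.91 and the cross read 9.71, 10.12 and 10.04. The count of 10 changed with single arrays, to 35 higher and 279 lower without Gal4/7 replicate 1, to 14 and 57 without Gal4/7 replicate 2 and to 37 and 8 without cross replicate 1. Without any 1 of the other arrays of this comparison it was 1 to 7 higher and 0 to 3 lower genes.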

How the data were processed

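RNA of eye-antennal discs, 2 µg per sample, was hybridised to Affymetrix Drosophila 2.0 arrays. Per the labels the deposited log2 values were made by the authors with RMA (version not given in the sources used here), which corrects background, normalizes quantiles between arrays and summarises each probe set, so differences in overall signal between arrays are removed. Scanner intensities are not analysed here, and the number of arrays limits the precision. The table held 18952 probe sets, of which 183 Affymetrix controls were left out. Of the 18769 tested, 13647 named 1 gene, 402 several and 4720 none in the annotation used, and the probe set with the highest mean stood for a gene, giving 11982 genes. Among 49 called genes with more than 1 probe set, 11 had another one called in the same direction and 0 in the opposite one. Changes and tests came from limma (3.58.1 in R 4.3.3; lmFit and eBayes, two-sided), fitted to the 3 cross and 8 control arrays, to the cross and its 4 parent arrays, and to the 10 arrays of the driver comparison, with Benjamini-Hochberg adjustment over all probe sets and a threshold of 0.05. The fits were tested on simulated data. Python (3.11.15) with pandas (2.3.3) and matplotlib (3.10.9) made counts and plots.

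Genes named were the 15 largest increases and 10 largest decreases with all cross arrays beyond every control, all measured R8 genes, up to 4 called members of each other list (the 2 brightest where none passed) and up to 6 driver differences; any other gene, such as elav, repo, trp, salm or CadN, was chosen after its values were seen. The members and lists were chosen with earlier results of these data known, and the targets tested by reporter were chosen by the study on arrays of this series. Alternatives were other filters, normalizations, fits and control sets, and each array left out in turn; the fit without the Gal4/7 control line was chosen after seeing the data. Listed genes without a probe set naming them alone, such as sca, dap and several rhodopsins, are not analysed here.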

Additional observations from a re-analysis of the deposited data

Results flagged for a closer look

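In 17 of 202 groups of control or parent arrays examined for the named genes, 1 array lay far from the rest, where chance alone gives about 1 in 20. Among the 8 controls CantonS replicate 1 was the lowest for lz (8.76, next 9.41), CG3257 (6.57) and Hr39 (10.29), and atoGal4 replicate 1 was the lowest for CG5653 (8.20). Gal4/7 replicate 2 was the highest for the midgut proteases Jon65Aiii (14.26) and Jon65Aiv (14.71), and Gal4/7 replicate 1 for the muscle gene TpnC73F (12.59), which it also was among the 4 parent arrays. The highest control array for Psn was atoGal4 replicate 2 (10.79), for dpn CantonS replicate 2 (9.49) and for y UASato replicate 2 (4.21, also among the parents). Among the 4 parent arrays alone, Gal4/7 replicate 2 was lowest for the glue genes Sgs7 (8.14) and Sgs8 (7.14), Gal4/7 replicate 1 was highest for Tm2 (11.63), and UASato replicate 2 was lowest for Fbp2 (12.06) and spdo (6.59).

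The change under Gal4/7 differed from the change under atoGal4, by limma's test of the difference, for 10 genes. The log2 difference was 3.28 for CG18343, 2.93 for CG6912, 2.74 for PGRP-LE, 1.82 for Fie, 1.65 for CG12880, 1.49 for CG7054, 1.24 for wnd, 1.21 for Mob2, 1.03 for CG12863 and -2.71 for hpRNA:CR32207.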

How the results depend on the processing

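Against the 8 controls, 235 higher and 63 lower genes (185 and 42 above 1.5-fold) became 129 and 26 (120 and 23) at an adjusted p under 0.01. A test of each gene alone with equal variances gave 995 and 465 (292 and 111) unadjusted, and after adjustment the lower genes numbered 39 (25). All lines in 1 fit gave 140 (78) lower genes and array weights 106. The replicate numbers were not taken to pair the arrays, by a rule applied to the lowest same-number correlation of deviations, 0.087 (Gal4/7 replicate 2). All same-number correlations were positive, at up to 0.525, and whether equal numbers shared a batch was not tested. With the replicate number as a block, to which cross replicate 3 adds nothing, the counts were 123 and 28 (113 and 23). Each array left out gave 103 to 232 higher and 25 to 72 lower genes (99 to 194 and 23 to 66). Against the parents, 133 and 31 became 51 and 18 with Gal4/7 alone, 76 higher with UASato alone, 8 and 1 with the replicate block, and 32 to 167 and 7 to 59 with arrays left out. The driver difference of 9 and 1 became 77 and 54 when the crosses were compared directly, 1 and 0 with the replicate block, and 1 to 37 and 0 to 279 with arrays left out. The reduced fits also hold fewer arrays, and the cause of these shifts was not tested. With the block 20 of 63 named genes lost their call, CG15522, CG34136, Cep290, Cpr47Ea, Dscam1, E(spl)m4-BFM, E(spl)m6-BFM, Hml, NimC1, Osi6, Sr-CI, ana, dpr9, eater, gcm, kirre, loco, moody, rdgB and sNPF. Of 63 named genes past the threshold against the 8 controls, 42 stayed past it whichever array was left out, 15 under every alternative, and 0 changed sign. Their cross arrays lay beyond every control array, so the lack of sign changes was largely fixed. Values of other genes changed sign with a call, CG18343 at -1.05 without the Gal4/7 line (chosen after seeing the data) and -0.90 against UASato, PGRP-LE at 2.79 and CG12880 at 1.41 against Gal4/7.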

Other observations

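Several called genes outside the lists belonged to families of the lists above, and they were chosen after their values were seen. Further ciliary genes were higher. Ttc30, of the intraflagellar transport machinery, read 6.10, 6.97 and 6.56 in Gal4/7 x UASato, against 4.57, 4.64 and 5.03 (lowest, median, highest) in the controls (log2 change 1.82, adjusted p = 0.000173). Of 11 Oseg and IFT genes 2 were higher, against 1.96% of all genes, with a family median of 0.24. They were IFT52 (0.94, adjusted p = 0.00414) and Oseg6 (0.77, adjusted p = 0.00945). Of 20 dpr genes 4 were higher, dpr5, dpr9, dpr10 and dpr19, against 1.96% of all genes, with a family median of 0.1. Of their 10 DIP partner genes 1 was higher, DIP-theta (1.09, adjusted p = 0.0385), with a family median of 0.05. gogo, a guidance receptor of photoreceptor axons, read 10.98, 11.27 and 11.40 in the cross, against 8.99, 9.67 and 9.80 in the controls (1.65, adjusted p = 0.000314). cac, the presynaptic calcium channel, read 7.63, 7.21 and 7.58 in the cross, against 5.51, 5.98 and 6.11 in the controls (1.58, adjusted p = 0.000223). Pph13, a homeodomain factor of photoreceptor maturation, stood at 1.2 on the log2 scale (adjusted p = 0.000582), and peb, a zinc-finger factor of the developing retina, one of 0.96 (adjusted p = 0.00226).

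Both FGF ligands of the receptor Heartless were lower. ths read 6.06, 5.83 and 5.72 in the cross, against 6.39, 6.97 and 7.48 in the controls (log2 change -1.10, adjusted p = 0.00797), and pyr read 6.37, 5.89 and 5.93 in the cross, against 6.57, 6.91 and 7.17 in the controls (-0.77, adjusted p = 0.0156). gcm2, the paralog of gcm, read 4.03, 3.97 and 3.97 in the cross, against 4.75, 5.16 and 5.84 in the controls (-1.18, adjusted p = 0.0111), and its difference between drivers was -1.56 (adjusted p = 0.0533). Of 66 Cpr cuticle genes 3 were higher, Cpr47Ea, Cpr47Ec and Cpr51A, against 1.96% of all genes, with a family median of -0.01. Cpr47Ec shared the pattern of Cpr47Ea, with 6.76, 8.86 and 8.29 in the cross, against 5.07, 5.94 and 6.23 in the controls (2.08, adjusted p = 0.0133).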
